A study of Mus musculus with 2 samples.

Results

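The bone morphogenetic protein (BMP), TGF-beta and activin pathway was read here as 40 genes: 14 ligands, 10 receptors, 9 Smads and membrane regulators, 6 secreted antagonists and the target gene Id4. All 40 were found by symbol among the 21938 protein-coding genes of the GENCODE M21 annotation of the mouse assembly mm10. Chromatin accessibility at these genes came from ATAC-seq, a method that lets the transposase Tn5 place sequencing adapters where chromatin is open. The intervals of a gene were those that overlapped a transcription start site (TSS) of one of its protein-coding transcripts, called TSS intervals, and those that overlapped no TSS but lay nearest to one of its TSSs, called distal intervals. The 40 genes held 583 of the 119502 intervals of the count table, of which 40 were TSS intervals and 543 were distal. Of these TSS intervals, that of Chrd also covered a TSS of Thpo, and the stronger of the pair at Acvr1 also covered a TSS of Upp2.

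The labels gave 1 group of 2 libraries, so no contrast between conditions existed. Both came from Olig2-mKate2 mouse embryonic stem cells, a reporter line whose red fluorescent protein mKate2 follows Olig2, the defining transcription factor of motor neuron progenitors. The cells were grown as neural progenitors to day 5 and live cells expressing the reporter were sorted, with 50000 cells per transposition. The study states that cells sorted by this reporter also hold motor neurons that have just differentiated and some cells with both OLIG2 and NKX2.2. The medium held bFGF at 10 ng/ml and LGK at 5 μM before day 2. For 20 h between day 2 and day 3 it held bFGF, CHIR99021 at 5 μM, SB-431542 at 10 μM and DMH1 at 2 μM, and after day 3 it held retinoic acid at 100 nM and SAG, an agonist of the Sonic hedgehog pathway, at 100 nM. SB-431542 blocks the type I receptors of TGF-beta, activin and Nodal, and DMH1 blocks BMP type I receptors, so all cells measured here had passed a period in which the pathway was inhibited from outside. No library without these agents was analysed here.

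Ligands of the family bind a complex of type I and type II receptors at the cell surface, and the type II receptor activates the type I receptor, a kinase that phosphorylates receptor-regulated Smads. Smad1, Smad5 and Smad9 carry BMP signals, Smad2 and Smad3 carry TGF-beta, activin and Nodal signals, and both kinds join Smad4 on the way to the nucleus. Smad6, Smad7 and the pseudoreceptor Bambi dampen the signal inside the cell or at its membrane, and secreted proteins such as Noggin, Chordin and Follistatin hold ligands away from their receptors. In the embryonic spinal cord, BMP ligands from the roof plate and the overlying ectoderm pattern the dorsal side, opposite to the Olig2 domain.

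The libraries held 31876165 and 31672240 counts in the table, and on the log2(normalised count + 1) scale their squared Pearson correlation was 0.968 across all 119502 intervals, which are not independent replicates. Of 5 neural progenitor markers (Olig2, Sox1, Sox2, Nkx6-1 and Pax6) all 5 had a TSS interval, against 0 of 5 genes of unrelated tissues, 2 of 4 pluripotency genes, 4 of 5 mesoderm and endoderm genes and 4 of 5 fibroblast genes, so a TSS interval alone does not mark the cell type. In bulk sorted cells, a promoter open in fewer cells and one that is less open in each cell cannot be told apart.

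The promoters of a pair of receptors and a pair of ligands are shown in sequence, and they were chosen for this after their values were seen. The pairs do not stand for their classes. The ratio of observed to expected CpG was 0.389 at the receptor Tgfbr3 and 0.954 at the ligand Bmp2. Over the 40 genes it ran from 0.0572 for Lefty1 to 1.23 for Acvr2a. Tgfbr1 and Bmpr2 had accessible promoters dense in CpG, and Bmp4 and Bmp5 had no TSS interval. Each window is the 250 bases before the gene's 5′-most GENCODE start, in mm10, read in the direction of transcription, and capitals mark each CG. No window overlapped an annotated exon. The windows are chr4:47352972-47353221 (plus strand), chr1:59763150-59763399 (plus strand), chr14:46390670-46390919 (minus strand) and chr9:75775114-75775363 (plus strand), and they hold 29, 27, 11 and 4 CG dinucleotides, or 0.876, 0.913, 0.451 and 0.345 of the number expected from their base composition.
Tgfbr1: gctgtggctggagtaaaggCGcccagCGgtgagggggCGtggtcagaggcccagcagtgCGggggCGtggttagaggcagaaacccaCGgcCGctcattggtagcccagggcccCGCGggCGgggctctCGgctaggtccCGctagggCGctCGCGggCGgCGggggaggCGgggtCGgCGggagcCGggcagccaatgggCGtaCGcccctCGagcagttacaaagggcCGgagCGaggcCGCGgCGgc
Bmpr2: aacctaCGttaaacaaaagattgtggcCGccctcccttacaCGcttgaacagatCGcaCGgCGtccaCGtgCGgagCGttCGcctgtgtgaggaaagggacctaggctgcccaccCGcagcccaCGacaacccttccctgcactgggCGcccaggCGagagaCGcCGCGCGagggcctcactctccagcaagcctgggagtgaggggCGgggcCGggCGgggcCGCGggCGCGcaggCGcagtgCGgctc
Bmp4: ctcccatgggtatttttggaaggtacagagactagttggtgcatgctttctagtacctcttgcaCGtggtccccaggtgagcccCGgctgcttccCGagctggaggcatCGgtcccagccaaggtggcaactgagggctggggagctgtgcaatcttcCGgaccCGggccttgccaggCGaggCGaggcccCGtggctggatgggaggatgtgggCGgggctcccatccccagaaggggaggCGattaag
Bmp5: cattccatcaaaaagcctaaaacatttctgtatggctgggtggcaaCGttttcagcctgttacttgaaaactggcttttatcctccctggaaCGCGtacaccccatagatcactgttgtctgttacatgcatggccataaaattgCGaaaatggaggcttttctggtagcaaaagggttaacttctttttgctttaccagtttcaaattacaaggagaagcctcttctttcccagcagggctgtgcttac

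Promoter accessibility was taken as the density of a gene, that is, the DESeq2 size-factor normalised counts over its TSS intervals per kb of their summed length, and as 0 for a gene without a TSS interval. A TSS interval was present at 37 of the 40 genes (92.5%), against 66.7% of all protein-coding genes. The median density of the 40 genes was 801 in replicate 1 and 780 in replicate 2, and the median of their mean densities was 807 ± 14.9 (SD of the 2 library medians, n = 2). The median over all protein-coding genes was 487 ± 9.04 (SD, n = 2), and 28 of the 40 genes (70%) lay above it. Among genes that had a TSS interval the direction turned, with a median of 812 for the pathway and of 853 for all genes. Tgfbr1 and Smad2 were the 2 pathway genes in the upper 10% of all genes, and Bambi lay just below it.

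**Figure D1:**
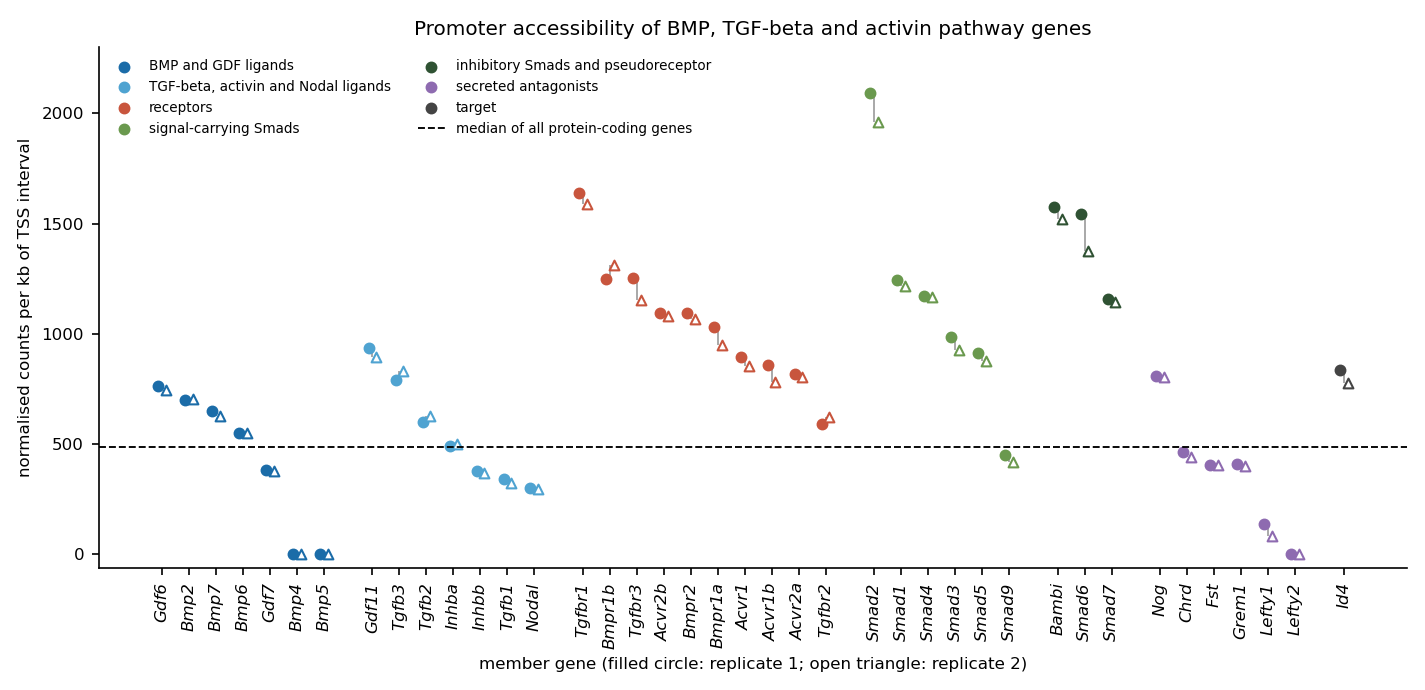
Promoter accessibility of the 40 pathway genes, in normalised counts per kb of TSS interval on a linear axis, by class and in order of mean density. Filled circles are replicate 1 and open triangles replicate 2, the grey line joins them, and the dashed line is the median of all protein-coding genes (487). All 10 receptors lie above the dashed line, whereas 5 of 6 secreted antagonists lie below it.

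The classes differed in level. The median density was 1036 ± 39.0 (SD, n = 2) for the 10 receptors and 1062 ± 21.0 for the 6 signal-carrying Smads, and 15 of these 16 genes lay above the median of all genes. It was 552 ± 0.319 for the 7 BMP and GDF ligands, 495 ± 7.10 for the 7 TGF-beta, activin and Nodal ligands, and 406 ± 4.94 for the 6 secreted antagonists. In median density, the receptors and signal-carrying Smads thus lay above the ligands and antagonists by more than the spread between the libraries. The medians of the receptors and of the signal-carrying Smads were within that spread of each other. It is a spread between library medians and not between genes. In the ligand classes it is that of the middle gene alone, Bmp6 (552 ± 0.319) and Inhba (495 ± 7.10). Single genes overlapped between classes. Densities ran from 608 to 1614 for receptors, 435 to 2024 for signal-carrying Smads, 0 to 915 for ligands and 0 to 807 for antagonists. The genes were chosen by class and not at random, and no test was made between classes.

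Among the BMP and GDF ligands, Gdf6 had the densest promoter, with 765 and 744 normalised counts per kb in replicates 1 and 2 (754 ± 15.2, SD, n = 2). Bmp2 followed at 700 and 706, and Bmp7, a ligand of the roof plate and ectoderm, at 649 and 626. Bmp6 lay at 552 in both replicates. These 4 ligands were above the median of all genes, and their order was larger than the spread between the libraries at each step. Gdf7, a roof plate ligand that acts on dorsal interneurons, was lower, at 384 and 376.

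Bmp4 and Bmp5 had no TSS interval, so their promoter accessibility was entered as 0, which says that no interval of the table covered an annotated start and not that no fragment fell there. Bmp4, which patterns the dorsal neural tube and early mesoderm, was not without accessible chromatin: an interval of 3498 bp at chr14:46385631-46389128, which covers a coding exon of Bmp4 and a start of the noncoding gene Gm15222 and begins 1422 bp downstream of its nearest TSS, held 1241 and 1128 counts (339 ± 23.0 normalised counts per kb). This density exceeded 87.3% of all distal intervals. For Bmp5 the nearest interval was 14573 bp away and held 18 and 16 counts, while its densest interval lay in a Bmp5 intron at chr9:75830898-75831266, with 209 and 222 counts (584 ± 24.6 per kb). Bmp4 and Bmp5 thus had open elements inside the gene and none over the start.

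All 7 TGF-beta, activin and Nodal ligands had a TSS interval. Gdf11, which times neuron production in the spinal cord, was highest with 935 and 896 normalised counts per kb (915 ± 27.5, SD, n = 2), followed by Tgfb3 at 793 and 831 and Tgfb2 at 601 and 629. Inhba, which encodes the activin A subunit, lay at the median of all genes with 490 and 500. Inhbb, which encodes the activin B subunit, had 378 and 371, Tgfb1 had 341 and 322, and Nodal, an inducer of mesoderm and endoderm in the early embryo, had 301 and 295. The 3 TGF-beta ligands were therefore spread from 332 ± 13.8 for Tgfb1 to 812 ± 26.8 for Tgfb3, and the activin subunits differed beyond the spread between the libraries (495 ± 7.10 and 374 ± 4.68).

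All 10 receptor genes had a TSS interval and a density above the median of all genes, which counts genes without a TSS interval as 0. Acvr1b (820), Acvr2a (812) and Tgfbr2 (608) lay below the median of all genes with a TSS interval, 853. Of the type I receptors, Tgfbr1, the TGF-beta receptor kinase and a target of SB-431542, was highest with 1638 and 1589 normalised counts per kb (1614 ± 35.0, SD, n = 2), more than 91.3% of all protein-coding genes. Acvr1b, the activin type I receptor, had 859 and 781. Tgfbr1 was denser than Acvr1b by more than the spread between the libraries. The BMP type I receptors Bmpr1b and Bmpr1a had 1248 and 1314 and 1032 and 948.

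Acvr1, the remaining BMP type I receptor, lay at 896 and 855, but this value pooled an unequal pair of TSS intervals. The interval at chr2:58566224-58567743 held 2149 and 2050 counts (1381 ± 46.9 per kb), and a second one at a start inside the gene, chr2:58515357-58516291, held 49 and 49 (52.4 per kb). Taken alone, the first was denser than the promoter of Bmpr1a, although Upp2 starts in the same interval. Bmpr1b also had a pair, both strong: the interval at chr3:141931258-141931796 reached 1424 ± 3.11 per kb and that at chr3:142168551-142169618 reached 1208 ± 68.8, lower in both libraries.

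Among the type II receptors, Acvr2b, which binds activin and BMP ligands, had 1095 and 1080 and Bmpr2 had 1094 and 1068. Their means, 1087 ± 10.6 and 1081 ± 18.3 (SD, n = 2), differed by less than either SD. Acvr2a lay at 820 and 805, and Tgfbr2, the TGF-beta type II receptor, was the lowest receptor gene with 593 and 624. The co-receptor Tgfbr3, or betaglycan, which presents TGF-beta to Tgfbr2, had 1252 and 1155, above Tgfbr2 by more than the spread between the libraries. The partners of the TGF-beta receptor complex, Tgfbr1 and Tgfbr2, were therefore at the opposite ends of the receptor class.

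Smad2, which carries TGF-beta, activin and Nodal signals, had the densest promoter of all 40 genes, with 2090 and 1958 normalised counts per kb (2024 ± 93.4, SD, n = 2), more than 96.3% of protein-coding genes. Its partner Smad3 had 984 and 928. Of the BMP-regulated Smads, Smad1 had 1244 and 1218 and Smad5 had 912 and 876, whereas Smad9 was the only signal-carrying Smad below the median of all genes, with 449 and 421. The common mediator Smad4 had 1171 and 1167. Smad1 lies on chromosome 8, where the median density of all TSS intervals was 1.42 times that of the other autosomes (1149 and 1111 per kb in the replicates), and the part of this in the value of Smad1 was not tested.

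All 3 inhibitory genes of the pathway lay above the median of its receptors. Bambi, a receptor-like protein without a kinase that takes up ligand or receptor partners, had 1574 and 1519 (1547 ± 39.0, SD, n = 2), and Smad6, which blocks mainly BMP signals, had 1541 and 1376 (1458 ± 117). The means of Bambi and Smad6 differed by less than the SD of Smad6. Smad7, which blocks both branches, had 1158 and 1144 over a pair of TSS intervals, of which the one at the gene's 5′ end reached 1793 ± 36.2 and the next one downstream 656 ± 10.8.

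Per kb, the secreted antagonists were low apart from Nog, which encodes the BMP antagonist Noggin and had 809 and 805 normalised counts per kb (807 ± 2.94, SD, n = 2). Chrd, encoding Chordin, had 465 and 442 in an interval that it shared with Thpo. Grem1, encoding the BMP antagonist Gremlin, had 412 and 399 and Fst, encoding the activin antagonist Follistatin, 408 and 407. Grem1 and Fst differed by less than the SD of Grem1 (406 ± 9.43 and 407 ± 0.446). Interval length enters this order: the TSS intervals of the class had a median of 2288 bp, against 1282.5 bp over all genes. As counts, Nog held 1850 and 1842, Fst 1368 and 1367, Chrd 1366 and 1299 and Grem1 792 and 767. Receptor counts ran from 732 and 771 for Tgfbr2 to 2560 and 2527 for Acvr2b.

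The Nodal antagonists Lefty1 and Lefty2, which are made in the early embryo and on its left side, stood at the bottom of the class. Lefty1 had a TSS interval of 301 bp with 41 and 25 counts, which gave 136 and 83.0 per kb (110 ± 37.7), and this was the largest relative difference between the libraries at any TSS interval of the pathway. Lefty2 had none, and its nearest interval, over a coding exon of Lefty2 at chr1:180894120-180894950, began 1012 bp from the start and held 166 and 164 counts (198.6 ± 1.82 per kb). Nodal and its antagonists, Lefty1 and Lefty2, were thus all below the median of all genes. Id4, a BMP-responsive gene that encodes an inhibitor of basic helix-loop-helix factors, had 836 and 778 (807 ± 41.0).

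The CpG content of the promoter windows differed by class as well. Over the 250 bases before the 5′-most start of each gene, the median ratio of observed to expected CpG was 0.792 for the 40 genes and 0.534 for all protein-coding genes, and it exceeded 0.6 in 29 of 40 (72.5%) against 44.6% of all genes. Since promoters with a TSS interval were richer in CpG in general (64.8% above 0.6, against 3.93% of those without), the closer comparison is with the 37 genes that had one, of which 78.4% were above 0.6. All 6 signal-carrying Smads, all 3 inhibitory genes and 9 of 10 receptors exceeded 0.6, as did 4 of 6 secreted antagonists, 4 of 7 BMP and GDF ligands and 2 of 7 TGF-beta, activin and Nodal ligands. The last count was 4 of 7 in windows of 150 bases. Tgfb1 and Tgfb3 lay just below that limit at 0.5997 and 0.595, and Gdf6 was the nearest above it at 0.644.

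Single genes departed from a common order of accessibility and CpG content, and no association over the 40 genes was computed. Of the genes with a ratio below 0.6, only Tgfbr3 exceeded 853, the median density of all genes with a TSS interval. Genes with a ratio above 0.6 lay on both sides of that median. Tgfbr3 had the third densest receptor promoter (1203 ± 68.6) at a CpG ratio of 0.389, and Fst had one of the highest ratios, 1.11, at a density of 407. Acvr2a had the highest ratio of the 40 genes, 1.23, and a density of 812, while Bmp4, Bmp5, Lefty2, Lefty1 and Nodal all had ratios below 0.5. The TSS intervals ran from 301 to 3482 bp, so a window of 250 bases covered a part of each.

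**Figure D2:**
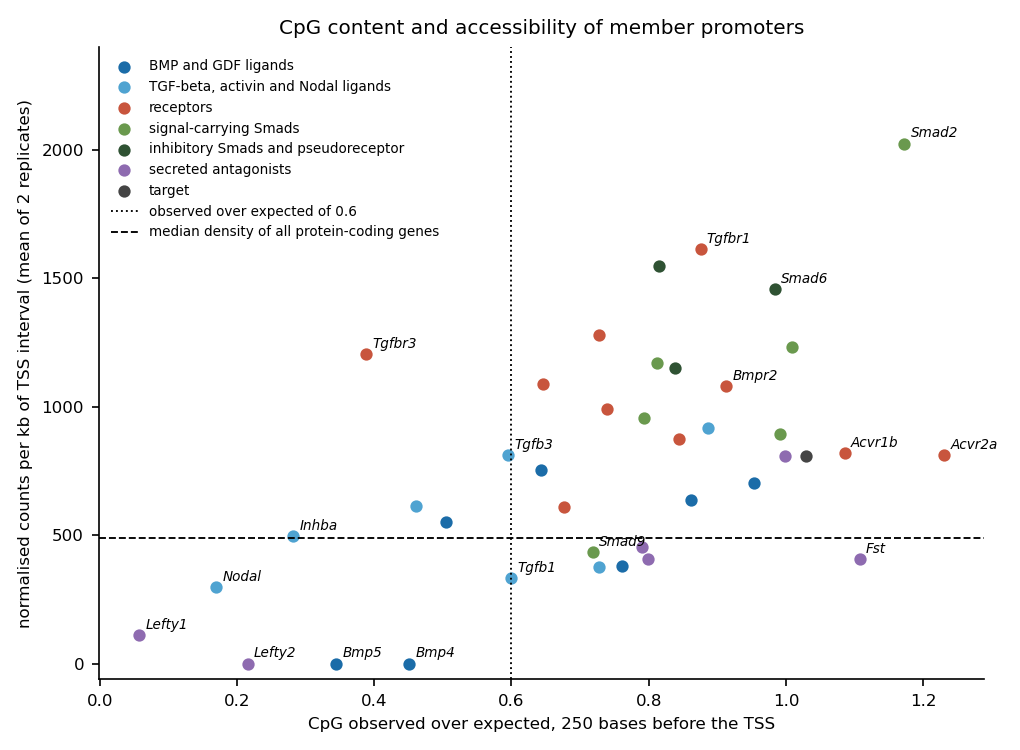
CpG observed over expected in the 250 bases before the TSS (horizontal axis, a ratio) against promoter accessibility (vertical axis, normalised counts per kb, mean of 2 replicates) for the 40 genes, coloured by class. The dotted line marks a ratio of 0.6 and the dashed line the median density of all protein-coding genes. Lefty1, Lefty2, Bmp5 and Bmp4 sit at the lower left, and Tgfbr3 stands alone among the receptors left of the dotted line.

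The promoter windows were searched on both strands for 7 short motifs, each counted on its own, so that matches of different motifs could overlap. The sequence GGCGCC, known from BMP-responsive elements bound by Smads, occurred in 10 of 40 windows (25%, Wilson 95% interval 14.2 to 40.2%), against 11.9% of all promoter windows and 16.8% of those with a TSS interval. In windows of 150 bases it was in 5 of 40 (12.5%), and among genes with a TSS interval in 13.5% of the pathway's windows against 12.5% of all, so the difference rested on the longer window. In the windows of 250 bases the genes were Smad2, Smad4, Smad9, Smad7, Bambi, Tgfbr1, Bmpr2, Acvr1, Chrd and Grem1, so no ligand promoter held it. The SMAD palindrome GTCTAGAC was in 0 of 40 windows and in 0.169% of all promoter windows. The SOX motif ACAATG, the homeodomain motif TAATTA and the forkhead motif TGTTTAC were also in 0 of 40, against 8.96%, 4.77% and 2.59% of all promoter windows (5.89%, 2.26% and 2.02% of those with a TSS interval). The Wilson 95% interval of these zeros was 0 to 8.76%. For the 37 windows with a TSS interval it was 0 to 9.41%, which covered each of the shares of all windows with one. The E-box CAGCTG was in 4 of 40 (10%) against 12.1%, and CATATG in 1 of 40 (2.5%) against 2.86%. Base composition differed as well: the median share of G and C bases was 69.8% in the pathway's windows and 55.2% in all promoter windows. With a TSS interval it was 70.8% and 59.6%. It was 66% for the BMP and GDF ligands and 53.6% for the TGF-beta, activin and Nodal ligands. GGCGCC holds only G and C, and the part of base composition in these shares was not tested. A match describes the letters of a window and does not show binding.

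The 543 distal intervals were close to all distal intervals in accessibility. Their median density was 119 in replicate 1 and 129 in replicate 2, against 123 and 126 over all 104632 distal intervals, and 161 (29.7%) had a mean normalised count over 100, against 31.2%. They differed more in number and position. The 40 genes had a median of 7.5 distal intervals each, and all protein-coding genes a median of 2. The stretch of genome closer to a gene's TSSs than to those of any other gene had a median of 176 kb for the pathway and of 46.2 kb for all genes, so that the rates per 100 kb, 5.65 and 3.79, lay closer together than the numbers did.

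**Figure D3:**
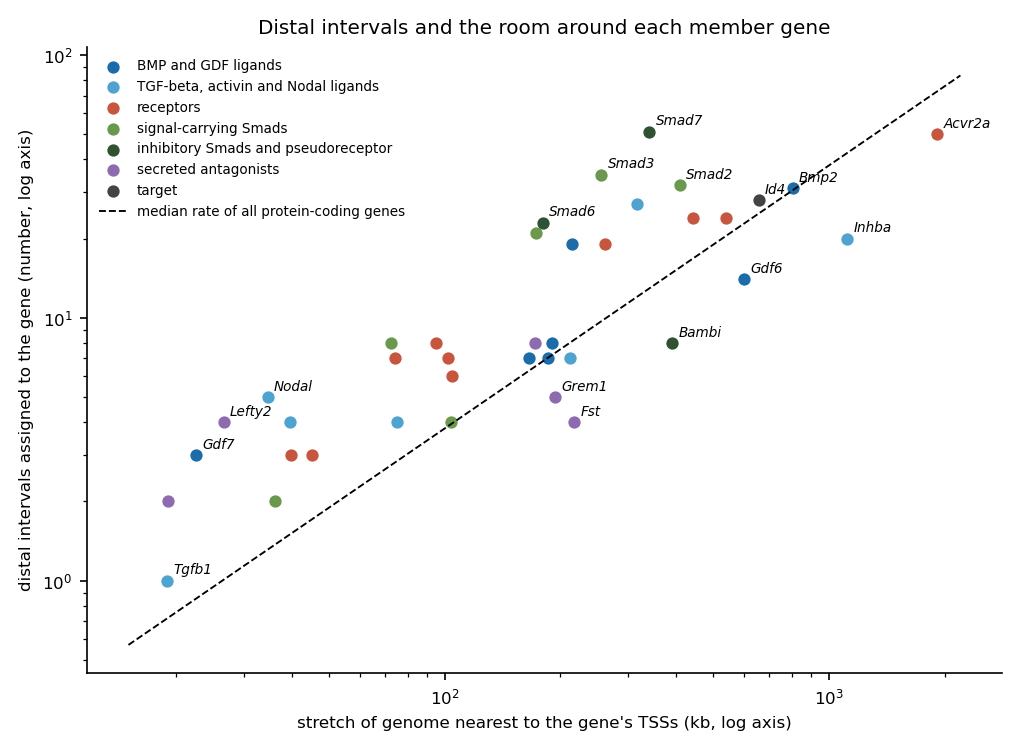
Number of distal intervals (vertical axis, log scale) against the stretch of genome nearest to the gene's TSSs in kb (horizontal axis, log scale) for the 39 genes with a distal interval, coloured by class. The dashed line is the median rate of all protein-coding genes, 3.79 per 100 kb. Smad7 and Smad3 lie above the line, Acvr2a, with the widest stretch, lies below it, and Inhba and Bambi lie well below it.

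Smad7 had 51 distal intervals in 341 kb, or 15.0 per 100 kb, and 18 of them had a mean normalised count over 100. Acvr2a had nearly as many, 50, but in 1916 kb, or 2.61 per 100 kb. Smad3 had 35 intervals in 255 kb and Smad2 had 32 in 409 kb. Bmp2 followed with 31 in 804 kb, Id4 with 28 in 657 kb and Tgfb2 with 27 in 316 kb. At the other end, Chrd had 0 in a stretch of 1.94 kb, Tgfb1 had 1 and Lefty1 and Smad9 had 2 each.

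The distal intervals lay far from the starts they were assigned to. Their median distance was 70.3 kb, against 33.6 kb over all distal intervals. A wider stretch around a gene (a median of 176 kb, against 46.2 kb for all genes) allows longer distances. Acvr2a alone gave 50 of the intervals, over 1916 kb, and the part of this in the values below was not tested. Of the 543, 207 (38.1%) lay beyond 100 kb, against 24.8%, and 76 (14%) lay within 10 kb, against 21.5%. Intergenic positions made up 48.3%, against 40.2%, introns 41.6% against 45.1%, and coding exons 4.604% against 7.85%. TSS intervals held 45.4% and 44.2% of the pathway's counts in replicates 1 and 2, compared with 55.5% and 54.6% over all intervals. Nearness to a start is a position and does not show which gene an element acts on.

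**Figure D4:**
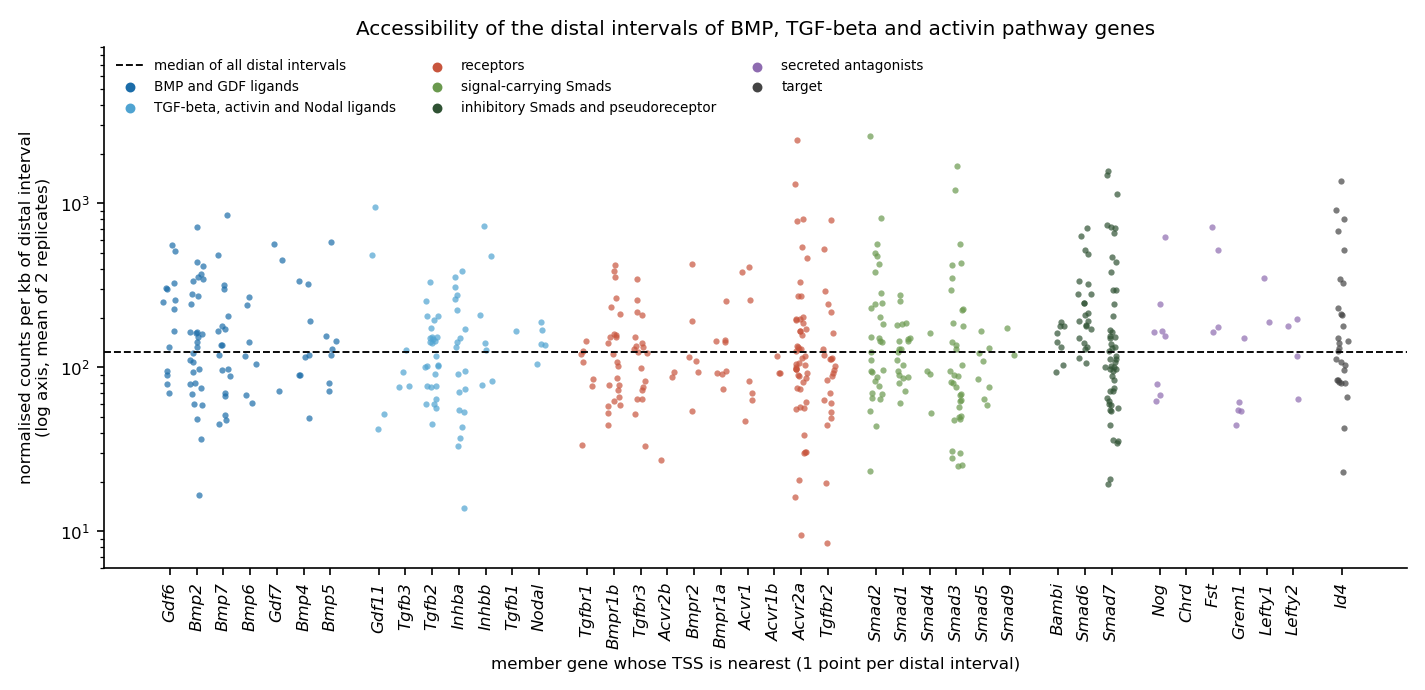
Density of each of the 543 distal intervals in normalised counts per kb (vertical axis, log scale, mean of 2 replicates), by the gene whose TSS is nearest and coloured by class. Points are spread sideways for display only, and the dashed line is the median of all distal intervals (123). Most genes straddle the line, and the highest points belong to Smad2, Acvr2a, Smad3, Smad7 and Id4.

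The sequences of 4 dense distal elements are shown by their central 300 bases. They are the 4 densest outside the Smad2 and Smad7 loci, whose denser intervals are given by position and value only. The windows are in mm10 on the plus strand, with capitals for any of the 7 motifs searched on both strands. The first lies between genes, 275 kb upstream of Acvr2a, at chr2:48538783-48539082 and holds 1 SOX motif (ACAATG). The second lies between genes, 24.6 kb upstream of Smad3, at chr9:63782815-63783114 and holds none. The third lies 32.8 kb upstream of Id4 in an intron of the noncoding genes A330033J07Rik and Gm36346, at chr13:48227927-48228226, and holds the E-box CAGCTG 2 times and 18 CG dinucleotides. The fourth lies 372 kb upstream of Acvr2a in an intron of Gm13481, at chr2:48441331-48441630, and holds none. The intervals around them held 2027 and 2069, 1315 and 1282, 942 and 960, and 930 and 891 counts in replicates 1 and 2, or 2432 ± 33.9, 1700 ± 31.5, 1376 ± 17.6 and 1312 ± 40.5 normalised counts per kb (SD, n = 2).
Acvr2a, first interval: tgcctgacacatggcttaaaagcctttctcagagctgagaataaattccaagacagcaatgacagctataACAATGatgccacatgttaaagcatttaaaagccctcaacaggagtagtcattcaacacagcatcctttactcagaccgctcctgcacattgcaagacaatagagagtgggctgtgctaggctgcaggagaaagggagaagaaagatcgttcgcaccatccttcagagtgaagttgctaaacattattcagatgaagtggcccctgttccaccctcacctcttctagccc
Smad3: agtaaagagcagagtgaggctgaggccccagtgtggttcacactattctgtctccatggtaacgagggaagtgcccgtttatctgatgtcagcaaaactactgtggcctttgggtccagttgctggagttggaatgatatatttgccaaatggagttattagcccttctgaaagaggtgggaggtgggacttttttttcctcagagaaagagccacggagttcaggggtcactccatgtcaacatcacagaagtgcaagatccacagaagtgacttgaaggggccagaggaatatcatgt
Id4: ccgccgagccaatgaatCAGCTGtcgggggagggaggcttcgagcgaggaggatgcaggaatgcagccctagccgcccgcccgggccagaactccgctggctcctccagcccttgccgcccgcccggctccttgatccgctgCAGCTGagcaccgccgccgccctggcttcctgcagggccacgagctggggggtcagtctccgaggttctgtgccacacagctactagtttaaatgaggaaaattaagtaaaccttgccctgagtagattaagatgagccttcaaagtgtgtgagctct
Acvr2a, second interval: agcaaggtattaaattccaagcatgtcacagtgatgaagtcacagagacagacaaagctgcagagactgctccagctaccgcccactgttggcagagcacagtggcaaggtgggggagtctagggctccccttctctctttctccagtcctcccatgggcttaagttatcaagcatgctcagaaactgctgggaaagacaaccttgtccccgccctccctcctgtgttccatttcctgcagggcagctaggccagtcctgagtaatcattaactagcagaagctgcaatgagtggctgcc

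The densest distal interval of the 40 genes was nearest to Smad2, at chr18:76542540-76543308, an intergenic position 280 kb downstream of the Smad2 start. It held 1963 and 1981 counts (2564 ± 15.1 normalised counts per kb, SD, n = 2), more per kb than the Smad2 promoter itself (2024 ± 93.4). Per kb, the Acvr2a interval 275 kb upstream likewise exceeded the Acvr2a promoter, 2432 ± 33.9 against 812 ± 10.6. The Smad3 interval 24.6 kb upstream exceeded that of Smad3, 1700 ± 31.5 against 956 ± 39.1. In counts, the longer promoter intervals of Smad2 (3044 and 2854) and Smad3 (2758 and 2605) held more than these distal intervals. The Acvr2a promoter held fewer (1319 and 1296). A further Smad3 interval, at chr9:63750239-63751058 over a coding exon, reached 1207 ± 3.61 but lay 19 bp from an annotated start, just outside the definition of a TSS interval.

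For Smad7, the densest intervals were one at chr18:75434151-75435391 over a coding exon of the neighbouring gene Ctif, 64.2 kb from the Smad7 start, with 1899 and 1993 counts (1568 ± 52.7 per kb), and one over a coding exon of Smad7 itself at chr18:75375388-75376033, with 963 in both replicates (1491 ± 0.861).

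The intervals at Smad2, Acvr2a and Smad3 were not typical of their classes. The median distal density was 108 ± 4.19 normalised counts per kb for the receptors and 110 ± 6.91 for the signal-carrying Smads, below the 138 ± 4.65 of the BMP and GDF ligands, the 130 ± 9.04 of the TGF-beta, activin and Nodal ligands and the 163 ± 8.12 of the secreted antagonists (SD, n = 2). For Tgfbr1, Acvr1b, Acvr2b, Smad4 and Smad5, the densest distal interval reached 144, 118, 94.2, 162 and 166. Of the ligands, Gdf11 had the densest, in its own intron at chr10:128888845-128889688, with 821 and 779 counts (948 ± 35.7 per kb). Next was an intron of Bmp7, at chr2:172934989-172935708 and 4.61 kb from the start, with 604 and 624 counts (853 ± 19.1). Per kb it exceeded the Bmp7 promoter (637 ± 15.9), which held more counts, 2182 and 2108, over 3366 bp. Inhbb had an intergenic interval at chr1:119388698-119389321 with 466 and 441 counts (727 ± 28.7), and Bmp2 one at chr2:133326213-133327131, 225 kb upstream of its start, with 634 and 690 (720 ± 42.7). Bmp2 and Inhbb did not differ beyond their spread. Of the antagonists, Fst had an interval 1.32 kb upstream of its start, in an exon of the noncoding gene Gm47040, at chr13:114460274-114460865. It held 438 and 414 counts (720 ± 29.1 per kb). The Fst promoter was less dense (407 ± 0.446) but held more counts, 1368 and 1367, over 3357 bp. Nog had an interval at chr11:89298290-89300376, with 1345 and 1275 counts (628 ± 24.1).

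The 7 motifs had shares in the central 300 bases of the pathway's distal intervals that were close to those of all distal intervals. The SOX motif ACAATG was in 25.8% against 23.5%, the E-box CAGCTG in 22.1% against 22.9%, the homeodomain motif TAATTA in 7.73% against 7.79%, the E-box CATATG in 6.63% against 5.63% and the forkhead motif TGTTTAC in 6.08% against 4.75%. GGCGCC was in 2.03% against 2.97%, and GTCTAGAC in 2 of 543 windows (0.368%) against 0.291%.

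No interval of the pathway differed between the 2 libraries after adjustment. In a two-sided exact binomial test per interval, Benjamini-Hochberg adjusted over 119480 intervals, 0 of 583 had an adjusted p below 0.01, and 0% of all intervals did (TMM scaling called 6 intervals of the whole table and 0 of the pathway). At an unadjusted p below 0.05 there were 62 of 583 (10.6%), where 8.39% of all intervals passed. Of the TSS intervals, that of Smad6 had the smallest p, with 2446 and 2186 counts (exact binomial p = 0.000125, adjusted p = 0.141). A distal interval nearest to Smad2, chr18:76189759-76190100, named after its value was seen, had a smaller one. It held 23 and 62 counts (exact binomial p = 2.77e-05, adjusted p = 0.0676). The test sets 1 library against the other and says nothing of conditions.

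Of the 199 pathway intervals with a mean normalised count over 100, 0 were more than 2-fold apart. The largest differences were at a Tgfbr2 interval, chr9:116475207-116476119, with 88 and 119 counts (log2 ratio of replicate 2 over replicate 1 of 0.43, exact binomial adjusted p = 0.559), a Smad6 interval, chr9:64045036-64045550, with 146 and 109 (−0.42, adjusted p = 0.487), and a Gdf6 interval, chr4:10169879-10171174, with 88 and 118 (0.42, adjusted p = 0.575). The squared correlation between the libraries was 0.994 over the 40 TSS intervals and 0.940 over the 543 distal ones, close to the values over all intervals of each kind, 0.993 and 0.946.

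**Figure D5:**
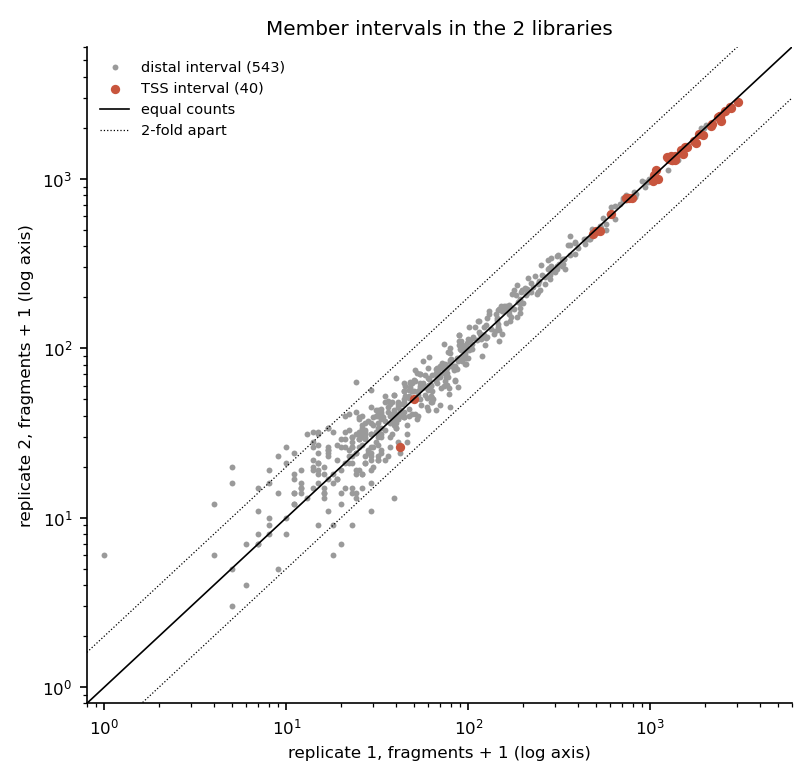
Counts of the 583 pathway intervals in replicate 1 (horizontal axis) and replicate 2 (vertical axis), each plus 1 on log axes. Red points are the 40 TSS intervals, grey points the 543 distal ones, the solid line is equality and the dotted lines are 2-fold apart. The points leave the 2-fold band only at low counts.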

How the data were processed

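ATAC-seq was measured in 2 libraries of 1 group. The deposited values were raw counts of fragments over 119502 intervals: per the file headers and the study's methods, reads were aligned to mm10, peaks called by MACS, and read pairs counted by featureCounts 2.0.1 in each interval covering a fraction of at least 0.2 of the fragment. Intervals were defined over 5 libraries, and 3 further columns of the table were not used. Normalisation used size factors of DESeq2 (1.42.0), with edgeR (4.0.16) TMM and total counts as alternatives, and densities were taken per kb of interval. Other steps used R 4.3.3, Python 3.11.15, numpy 2.4.6, scipy 1.17.1 and pandas 2.3.3. Ranks and counts are descriptions. On simulated data the binomial test called 187 of 200 changed intervals and 3 unchanged ones among 119502. The simulated counts held counting noise only, and the changes were 2-fold and placed in intervals with a mean normalised count over 100. Of the 583 pathway intervals, 199 had such a mean, so the simulation does not describe recovery at the weaker ones. The 40 genes, the lists and the measures were chosen with earlier results of these data known. All 40 genes are given by class; distal intervals were named by density (the 2 densest per class of 2 or more genes, and the 4 shown by sequence), beside those of Bmp4, Bmp5 and Lefty2 and the 19 bp neighbour at Smad3 and the highest values of 5 genes with weak distal intervals, which were chosen after their values were seen. Nothing states that the libraries came from separate cultures, so SDs may be technical. Fragments carried no molecular identifiers, and intervals cover counting error only. For 1 gene of the further pathway list, the result is not reported here.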

Additional observations from a re-analysis of the deposited data

How the results depend on the processing

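TMM and total-count scaling left the median promoter density, its ratio to all genes and the median distal density within the spread between the libraries, with 0 library calls at pathway intervals under either; class and gene values were not run under them. No paired analysis was possible because all samples formed 1 group. Given as counts per interval instead of per kb, the median promoter value was 1413, its ratio to all genes 2.17 (1.66 as reported) and the median distal value 53.5; interval length, longer at the pathway's promoters (median 1751 bp) than over all genes (1282.5 bp), enters these values. With TSS intervals extended to within 1 kb of a start, the median promoter density was 781 and the ratio 1.57. With only the 5′ end of each gene as its start the ratio was 2.01, and among genes with a TSS interval it was 0.952, below 1. Requiring a mean normalised count over 100 left 161 distal intervals with a median density of 285. Leaving out 1 replicate gave promoter medians of 780 to 801, ratios of 1.63 in both cases and distal medians of 119 to 129. In windows of 150 bases, 77.5% of promoters had a CpG ratio above 0.6, and the share of distal windows with each motif was lower, since a shorter window holds fewer letters. For the other shifts the cause was not tested. With 2 libraries, no outlier could be tested, and differences between classes rest on few genes.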

Other observations

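Of 62 further genes of the pathway, 45 (72.6%) had a TSS interval. The median promoter density of all 62 was 428 ± 15.1 (SD, n = 2), below the median of all genes. Among genes with a TSS interval it was 637 for these further genes and 853 for all genes. The 17 further ligands were the class with the lowest share of genes with a TSS interval, 7 of 17 (41.2%). Bmp8a (1050 ± 9.89 normalised counts per kb) and Gdf1 (705 ± 4.84, on chromosome 8) were highest and Gdf5 (72.8 ± 5.70) and Gdf3 (131 ± 9.58) were the lowest of those with an interval. Bmp10, Bmp15, Gdf2, Gdf9, Gdf15, Mstn, Inha, Inhbc, Inhbe and Amh, ligands known from heart, gonad, liver, muscle or stress, had none. Of 8 further receptors and co-receptors, Rgmb (884 ± 2.55) and Rgma (615 ± 24.2), BMP co-receptors of neural tissue, were highest, Eng (79.1 ± 13.6) and Acvrl1 (96.7 ± 10.1), of blood vessels, lowest, Acvr1c, which SB-431542 also blocks, had 329 ± 12.9, and Amhr2, Tdgf1 and Cfc1 had no TSS interval.

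Of 19 further secreted antagonists and modulators, 17 had a TSS interval, with Ltbp1 (1327 ± 26.1) and Bmp1 (1312 ± 14.02) highest, Sostdc1 (145 ± 1.55) and Ltbp3 (199.5 ± 7.03) lowest and Cer1 and Dand5, Nodal antagonists, without one. Of 9 further intracellular regulators, 8 had a TSS interval and lay above the median of all genes, which counts genes without one as 0. The Smad corepressors Ski (1326 ± 75.9) and Skil (1293 ± 26.7) were highest and Tgif1 (637 ± 2.27) and Smurf1 (675 ± 16.9) lowest. Tgif1, Smurf1, Tgif2 and Pmepa1 lay below 853, the median of all genes with a TSS interval, and the others with an interval lay above it. Foxh1, which partners Smad2 in Nodal signalling, had no TSS interval. Among further targets and dorsal genes with a TSS interval, Id2 (1134 ± 29.2) and Id3 (1111 ± 52.8) were highest and Msx3 (388 ± 8.996) and the roof plate gene Lmx1a (458 ± 17.8) lowest.

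Promoters of marker genes were read in the same way. A TSS interval was present at 4 of 5 motor neuron genes (all but Chat), 2 of 4 pluripotency genes (not at Pou5f1 or Nanog), 4 of 5 mesoderm and endoderm genes (all but Tbx6) and 4 of 5 fibroblast genes (all but Col1a1), and their median densities were 557 ± 52.1, 119 ± 2.43, 326 ± 36.3 and 248 ± 1.83.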
